A study of Mus musculus with 12 samples.

Results

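The 8 genes described here encode the cyclins that drive the G1, S and mitotic phases of the cell cycle: Ccnd1, Ccnd2, Ccnd3, Ccne1, Ccne2, Ccna2, Ccnb1 and Ccnb2. They were taken by symbol from the RNA-seq tables and are 8 of 21905 protein-coding genes with both RNA values and mm10 coordinates. The study compared mouse embryonic stem cells (mESCs, line E14) with NIH3T3 cells, an established line of mouse embryonic fibroblasts, to ask where Ctr9, a scaffold subunit of Paf1C, an elongation complex that travels with RNA polymerase II (RNAPII), binds in each. Ctr9-GFP and acetylated histone H3 lysine 27 (H3K27ac, a mark of active promoters and enhancers) were mapped by ChIP-seq in either line, NELFA-GFP (a subunit of the pausing factor NELF) and RNAPII phosphorylated at serine 5 (Ser5p) or serine 2 (Ser2p) were mapped in mESCs, and RNA was sequenced from each line. Each group with a processed file is 1 library without a replicate, so no difference below carries a test.

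Per the labels, both lines grew in 1 medium with serum and leukaemia inhibitory factor (LIF). Ctr9 carried GFP at its C-terminus, knocked in with CRISPR/Cas9, in pools of sorted GFP-positive cells and not in single clones. NELFA was pulled down through a GFP tag in a tagged mESC line, which per the study was also used for Ser5p. The labels give no other agent, allele or deletion for either line. The 2 RNA libraries held 26400407 estimated counts in mESCs and 28849497 in NIH3T3 cells. The peak lists held between 1675 (RNAPII Ser2p) and 44748 (Ctr9 in mESCs) peaks, and the read depth behind them is unknown. The line labels were checked against marker genes. All 6 mESC markers were at least 2-fold higher in mESCs and all 6 fibroblast markers in NIH3T3 cells. The mESC markers summed to 2633 TPM (the length-corrected share of a library's transcripts, scaled to a total of 1000000) in mESCs and 26.8 in NIH3T3 cells, where 4 of the 6, Pou5f1 among them, were listed at 0. The fibroblast markers summed to 4114 TPM in NIH3T3 cells and 171 in mESCs, most of it from Vim (162 TPM), an intermediate filament gene.

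Cyclins are regulatory subunits without which the cyclin-dependent kinases (CDKs) are inactive. D cyclins are induced by growth signals and, with CDK4 or CDK6, start the phosphorylation of the retinoblastoma protein that frees E2F factors. E cyclins then act with CDK2 at the entry into S phase, cyclin A2 acts with CDK2 and CDK1 through S phase and G2, and the B cyclins act with CDK1 in mitosis. Embryonic stem cells are known for a short G1 phase. The mitotic cyclin genes are repressed outside G2 and mitosis through promoter elements named CHR, next to CCAAT boxes bound by NF-Y.

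RefSeq promoters (250 bases before to 50 after the start, GRCm38.p6) were held for 4 of the 8 genes, and those of Ccnd1, Ccnd2, Ccne2 and Ccna2 were not. The 4 starts that the RNA and peak data bear on are shown on the strand of the gene, 5′ to 3′, with capitals for CCAAT, for the CHR letters TTTGAA or TTTAAA, and for the E2F letters TTTCCCGC, TTTGGCGC, TTTCGCGC or TTTGCCGC. Both strands were searched, and TTTAAA reads alike on both. The Ccnb1 and Ccnb2 promoters are shown for the letters they share, that of Ccne1 for its lack of CCAAT, and that of Ccnd3 for its downstream start.
Ccnb1, chr13:100786437-100786736, minus strand: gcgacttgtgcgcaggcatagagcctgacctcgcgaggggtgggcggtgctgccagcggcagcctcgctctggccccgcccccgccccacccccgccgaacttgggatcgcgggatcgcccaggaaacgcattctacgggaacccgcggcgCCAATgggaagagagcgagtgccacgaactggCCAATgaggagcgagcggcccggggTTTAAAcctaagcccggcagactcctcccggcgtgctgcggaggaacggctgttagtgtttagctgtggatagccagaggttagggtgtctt
Ccnb2, chr9:70421505-70421804, minus strand: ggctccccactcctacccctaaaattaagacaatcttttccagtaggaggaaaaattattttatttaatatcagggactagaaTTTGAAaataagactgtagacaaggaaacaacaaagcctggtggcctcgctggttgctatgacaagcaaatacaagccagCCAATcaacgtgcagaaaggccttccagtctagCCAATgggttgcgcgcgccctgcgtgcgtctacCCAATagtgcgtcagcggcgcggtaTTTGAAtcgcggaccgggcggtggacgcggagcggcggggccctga
Ccne1, chr7:38107441-38107740, minus strand: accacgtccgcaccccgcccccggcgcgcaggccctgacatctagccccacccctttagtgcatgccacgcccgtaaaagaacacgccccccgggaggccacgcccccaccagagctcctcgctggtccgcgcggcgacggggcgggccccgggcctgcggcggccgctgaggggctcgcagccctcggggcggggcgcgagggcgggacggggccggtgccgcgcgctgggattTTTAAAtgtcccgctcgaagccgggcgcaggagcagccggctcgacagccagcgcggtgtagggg
Ccnd3 downstream start, chr17:47593217-47593516, plus strand: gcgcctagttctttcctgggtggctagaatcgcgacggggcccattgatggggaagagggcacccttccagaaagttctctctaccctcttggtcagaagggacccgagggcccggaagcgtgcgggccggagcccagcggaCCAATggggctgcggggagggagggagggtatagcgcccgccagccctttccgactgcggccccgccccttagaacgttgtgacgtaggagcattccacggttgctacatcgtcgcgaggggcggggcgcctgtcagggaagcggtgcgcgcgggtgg
Motif distances here are counted from the RefSeq start. At Ccnb1 this was the start of the annotated transcript Ccnb1-202, 84 bases downstream of the gene start used for the Ccnb1 peaks below. The Ccnb1 promoter held 2 CCAAT boxes, at 99 and 67 bases before the RefSeq start, and a TTTAAA at 42 before it. Of these, the CCAAT at 67 and the TTTAAA lay downstream of the gene start. At Ccne1 the RefSeq start and the TTTAAA given below also lay downstream of the gene start. The Ccnb2 promoter held 3 CCAAT boxes, at 87, 54 and 21 bases before the start, with a TTTGAA at 167 bases before and another at 4 bases after it. Of all 32851 promoters, 37.4% held a CCAAT, 27.6% the CHR letters and 3.13% at least 2 CCAAT together with the CHR letters. At least 3 CCAAT were found in 3.37%. The Ccne1 promoter held no CCAAT, 1 TTTAAA at 15 bases before the start, and 4 copies of the Sp1 letters GGGCGG on either strand, which 35.7% of promoters hold at least once. The downstream Ccnd3 promoter held 1 CCAAT at 108 bases before the start. The Sp1 letters also came 3 times at Ccnb1, 2 times at the downstream Ccnd3 promoter and 1 time at Ccnb2. None of the 4 held the E2F letters (2.26% of all promoters) or TATAAA (13.6%). The sequences were GC-rich at Ccne1 (76.0%, with 41 CpG), Ccnd3 (67.0%) and Ccnb1 (66.3%), against a median of 52.7% for all promoters, and Ccnb2 was at 51.7%. These matches are letters in a window and show no binding.

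**Figure D1:**
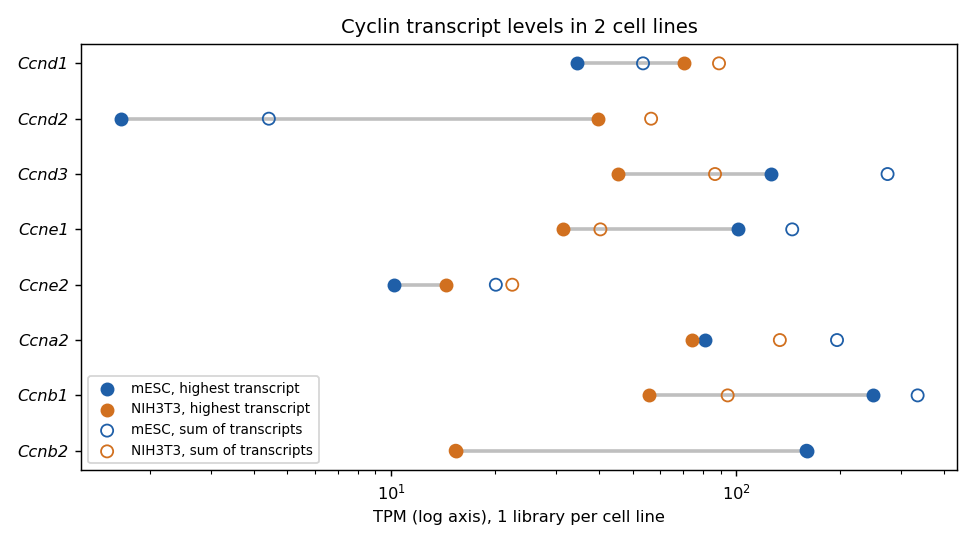
TPM of the 8 cyclin genes (log axis) in mESCs (blue) and NIH3T3 cells (orange), 1 library each, as the transcript with the highest TPM (filled) and as the sum of all transcripts (open). Ccnb2, Ccnb1, Ccne1 and Ccnd3 lay higher in mESCs, Ccnd2 and Ccnd1 in NIH3T3 cells, and Ccna2 and Ccne2 lay close together.

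The B cyclins, Ccnd3 and Ccne1 were higher in mESCs, and Ccnd2 and Ccnd1 were higher in NIH3T3 cells. With each gene read as its transcript with the highest TPM, as the study did, 4 of the 8 genes were at least 2-fold higher in mESCs, against 13.5% of all protein-coding genes and 23.8% of the 12379 with a TPM of at least 1 in either line. In the other direction, 2 of the 8 were at least 2-fold higher in NIH3T3 cells, against 11.3% and 20.0%. Ccne2 and Ccna2 differed by less. The median log2 ratio of mESCs to NIH3T3 cells, on the log2(TPM + 1) scale used for all ratios and folds of TPM here, was 0.79 for the 8 genes and 0.13 for the genes with a TPM of at least 1 in either line. The 8 genes summed to 763 TPM in mESCs and 347 in NIH3T3 cells. In bulk RNA, a different share of cells in a cycle phase and a different level per cell cannot be told apart.

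The order of levels differed between the lines. In mESCs it ran from Ccnb1 (249 TPM) through Ccnb2 (160), Ccnd3 (126), Ccne1 (101), Ccna2 (80.9), Ccnd1 (34.6) and Ccne2 (10.2) to Ccnd2 (1.65). No neighbours in this order had overlapping 95% exact Poisson intervals, which cover counting error only and not the error of dividing reads between transcripts. In NIH3T3 cells the order was Ccna2 (74.4 TPM), Ccnd1 (70.6), Ccnb1 (55.9), Ccnd3 (45.3), Ccnd2 (39.7), Ccne1 (31.4), Ccnb2 (15.4) and Ccne2 (14.4). There the intervals overlapped for Ccna2 (72.2 to 76.7) with Ccnd1 (68.8 to 72.5), and for Ccnb2 (13.9 to 16.9) with Ccne2 (13.4 to 15.5). By the highest transcript of each gene, cyclins A2, B1 and B2 made up 64.1% of the TPM of the 8 genes in mESCs. In NIH3T3 cells they made up 42.0%, while the D cyclins made up 21.3% in mESCs and 44.8% in NIH3T3 cells. The order, these shares and the D cyclin sum depend on the measure. Over all transcripts, cyclins A2, B1 and B2 added up to 690 TPM in mESCs, against 332 for the D cyclins. In NIH3T3 cells they added up to 243 TPM against 232, so the D cyclins were no longer the larger group there. With TPM summed over all transcripts of a gene, the mESC order was Ccnb1 (335 TPM), Ccnd3 (274), Ccna2 (196), Ccnb2 (160), Ccne1 (145), Ccnd1 (53.6), Ccne2 (20.1) and Ccnd2 (4.43). The NIH3T3 order was then Ccna2 (134 TPM), Ccnb1 (94.3), Ccnd1 (89.0), Ccnd3 (86.7), Ccnd2 (56.6), Ccne1 (40.4), Ccne2 (22.4) and Ccnb2 (15.4). The 3 D cyclins added up to 162 TPM in mESCs and 156 in NIH3T3 cells by the highest transcript of each, to 332 and 232 TPM over all transcripts, and to 338 and 491 estimated counts scaled to library size, a quantity that longer transcripts raise, so the direction of their sum is not settled here.

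Among the D cyclins, Ccnd3 supplied 77.7% of the TPM in mESCs, and no single D cyclin passed 45.4% in NIH3T3 cells. Ccnd2 (chr6:127125162-127152193, minus strand), a D cyclin known from ovarian granulosa and lymphoid cells, gave 1.65 TPM in mESCs and 39.7 in NIH3T3 cells, a 15.4-fold difference. The mESC value belongs to Ccnd2-207 and the NIH3T3 value to Ccnd2-201, which gave 1.62 TPM in mESCs. The summed reads of Ccnd2 were 230 against 5737 estimated counts, a ratio of 22.8 (95% exact binomial interval, 20.0 to 26.2) in favour of NIH3T3 cells after scaling to library size. Of the 8 genes, the lines were farthest apart at Ccnd2, which stood at percentile 1.29 of the log2 ratios of all protein-coding genes. Ccnd1 (chr7:144929931-144939925, minus strand), the D cyclin most often amplified in tumours, gave 34.6 TPM in mESCs and 70.6 in NIH3T3 cells, or 2.02-fold. In scaled counts the ratio was 1.97 (1.88 to 2.06), so Ccnd1 lay at the threshold and its call rests on the measure chosen. Ccnd3 (chr17:47505051-47599691, plus strand) gave 126 TPM in mESCs and 45.3 in NIH3T3 cells, a 2.75-fold difference in the opposite direction, with a counts ratio of 2.66 (2.53 to 2.79). These TPM values belong to different transcripts, the 336-base Ccnd3-219 in mESCs and the 1977-base Ccnd3-205 in NIH3T3 cells, both annotated as protein-coding. Ccnd3-205 itself gave 115 TPM in mESCs, a log2 ratio of 1.33.

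The 2 E cyclins behaved differently from each other. Ccne1 (chr7:38097984-38107534, minus strand) gave 101 TPM in mESCs and 31.4 in NIH3T3 cells, 3.15-fold, and its counts ratio was 3.34 (3.14 to 3.56). Ccne2 (chr4:11191351-11204779, plus strand) gave 10.2 and 14.4 TPM, 1.38-fold higher in NIH3T3 cells, with a counts ratio of 1.50 (1.34 to 1.69). These TPM values belong to different transcripts, Ccne2-203 in mESCs and Ccne2-202 in NIH3T3 cells. Ccne1 thus made up 90.8% of the E cyclin TPM in mESCs and 68.6% in NIH3T3 cells. Ccne2 was the lower E cyclin in both libraries.

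Ccna2 (chr3:36564865-36572150, minus strand), the A cyclin of dividing somatic cells, gave 80.9 TPM in mESCs and 74.4 in NIH3T3 cells, a log2 ratio of 0.12. Its counts ratio of 1.33 (1.28 to 1.37) was larger, and the full coding transcript took 63.5% of its reads in mESCs and 76.5% in NIH3T3 cells. Ccnb1 (chr13:100778650-100786570, minus strand), the main partner of CDK1 in mitosis, gave 249 TPM in mESCs and 55.9 in NIH3T3 cells, 4.39-fold, with a counts ratio of 3.91 (3.76 to 4.06). Ccnb2 (chr9:70407692-70421547, minus strand), a B cyclin found largely at the Golgi, gave 160 and 15.4 TPM, 9.80-fold, with a counts ratio of 10.6 (9.58 to 11.8). The mitotic cyclins did not share a ratio, and the 2 B cyclins and Ccna2 spanned 0.12 to 3.29 on the log2 scale. Copies of Ccnb1, Ccnb2 and Ccnd3 annotated as pseudogenes drew at most 0.561 TPM in either line.

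**Figure D2:**
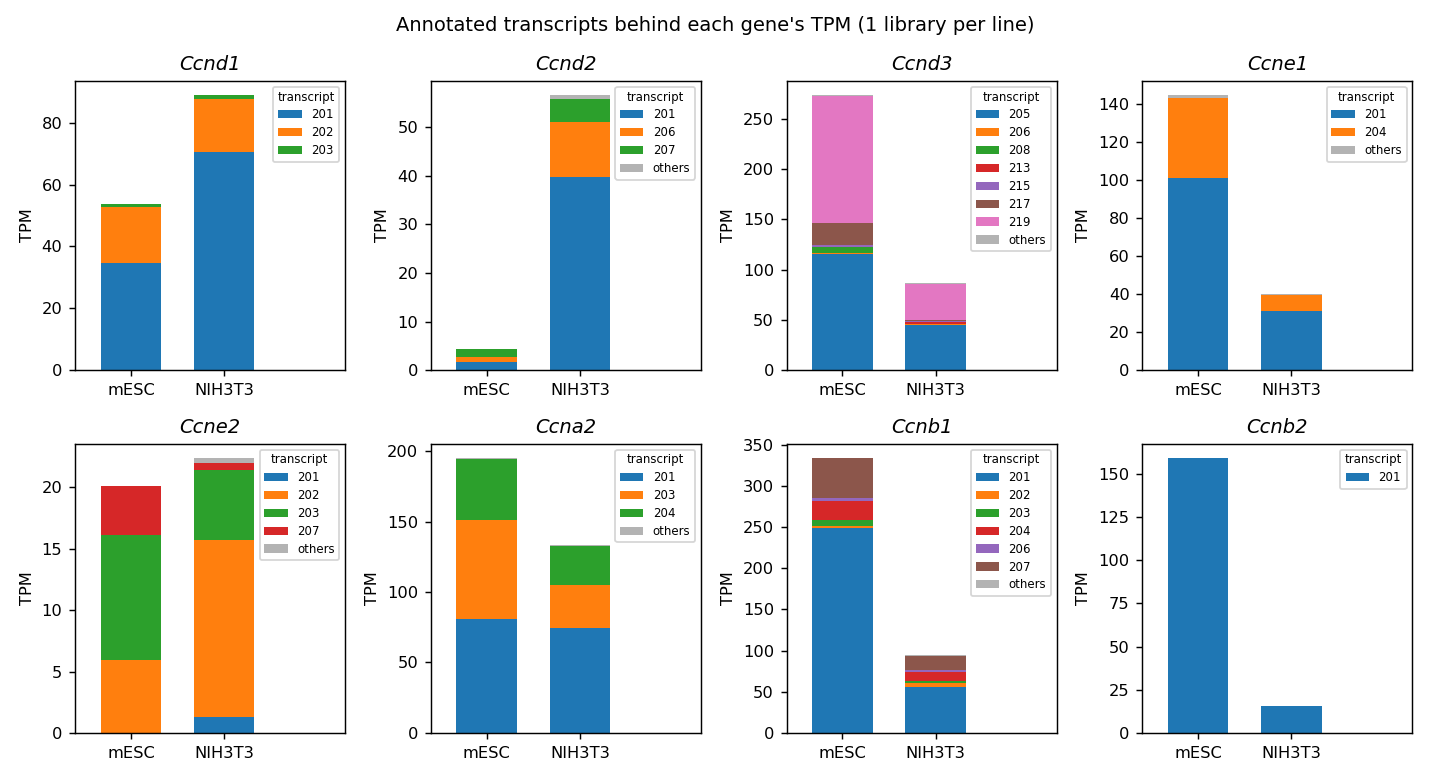
TPM of each annotated transcript (colours, named by the last part of the transcript name) stacked per cyclin gene, in mESCs and NIH3T3 cells, 1 library each. Ccnd3-219 in Ccnd3 and Ccne2-203 in Ccne2 take a large part of the TPM in mESCs.

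The annotated transcripts behind these levels differed in length, and the TPM favours short ones with few reads. Of the 21 Ccnd3 transcripts, 7 reached a TPM of at least 1 in either line. The coding transcript Ccnd3-205 (1977 bases) took 5105 of the 5901 estimated counts in mESCs and 2155 of 2426 in NIH3T3 cells, for 115 and 45.3 TPM. Ccnd3-219, a fragment of 336 bases also annotated as coding, reached 126 and 36.3 TPM with 342 and 107 estimated counts. Ccnd3-205 was thus the main Ccnd3 transcript by reads in both lines, and in mESCs it was second by TPM. It starts 88.4 kb downstream of the outermost annotated start. The 13 annotated transcripts that start within 1 kb of that outermost start gave 142 estimated counts in mESCs and 54.9 in NIH3T3 cells. Of these, Ccnd3-215 gave 131 estimated counts (2.85 TPM) in mESCs and 6 (0.114 TPM) in NIH3T3 cells, Ccnd3-218 gave 1 and 43 estimated counts (0.859 TPM in NIH3T3 cells), and Ccnd3-213 gave 0 and 4. The short Ccnd3-217 gave 21.3 TPM in mESCs and 0.942 in NIH3T3 cells, and Ccnd3-208 gave 5.40 TPM in mESCs and was listed at 0 in NIH3T3 cells. Ccnd3-206 was near 1 TPM in both.

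For Ccne2, the transcript with the highest TPM was not the same in the 2 lines. In mESCs it was Ccne2-203, a processed transcript of 535 bases (10.2 TPM from 54 estimated counts), and in NIH3T3 cells it was the coding Ccne2-202 (14.4 TPM from 682). Ccne2-202 itself gave 5.91 TPM in mESCs. A second coding transcript, Ccne2-207, which starts 3 bases into the gene where Ccne2-202 starts 379 bases into it, gave 180 estimated counts (3.99 TPM) in mESCs and 25 (0.516 TPM) in NIH3T3 cells, and Ccne2-201 went the other way, at 0 and 64 counts. The coding reads of Ccne2 were thus divided differently between annotated starts in the 2 libraries. With each gene read as the transcript with the most counts, the log2 ratio of Ccne2 was -1.16 and the gene passed the 2-fold mark toward NIH3T3 cells.

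Ccnd2-201 (6330 bases) carried 92.2% of the Ccnd2 reads in mESCs and 97.5% in NIH3T3 cells, at 1.62 and 39.7 TPM, while the processed transcript Ccnd2-207 led in mESCs by TPM with 7 estimated counts. Ccnd2-206 gave 0.996 and 11.2 TPM. Ccnd1-201 carried 95.5% and 97.6% of the Ccnd1 reads, and the retained-intron fragment Ccnd1-202 was at 18.2 TPM in mESCs and 17.1 in NIH3T3 cells, close together where Ccnd1-201 differed 2.02-fold. The other Ccnd1 transcript, Ccnd1-203, stood at 0.838 and 1.28 TPM. For Ccne1, Ccne1-201 gave 101 and 31.4 TPM and the shorter coding Ccne1-204 gave 42.3 and 8.38.

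Ccna2-201, the full coding transcript, gave 80.9 TPM in mESCs and 74.4 in NIH3T3 cells. Ccna2-203, annotated as a target of nonsense-mediated decay, gave 70.5 and 30.5 TPM, and the processed transcript Ccna2-204 gave 43.4 and 27.5. The difference in the summed Ccna2 level came largely from these 2 and not from the full coding transcript. Ccnb1-201 carried 87.3% of the Ccnb1 reads in mESCs and 75.8% in NIH3T3 cells. The coding Ccnb1-207 gave 49.0 and 17.9 TPM and the retained-intron Ccnb1-204 gave 23.2 and 11.7, and Ccnb1-202 was the member of the set that was higher in NIH3T3 cells, at 1.58 and 4.29 TPM. Ccnb1-203 (7.71 and 2.53 TPM) and Ccnb1-206 (3.41 and 1.45) were low in both. Ccnb2 has 1 annotated transcript. No interval covers the division of reads between such overlapping transcripts.

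**Figure D3:**
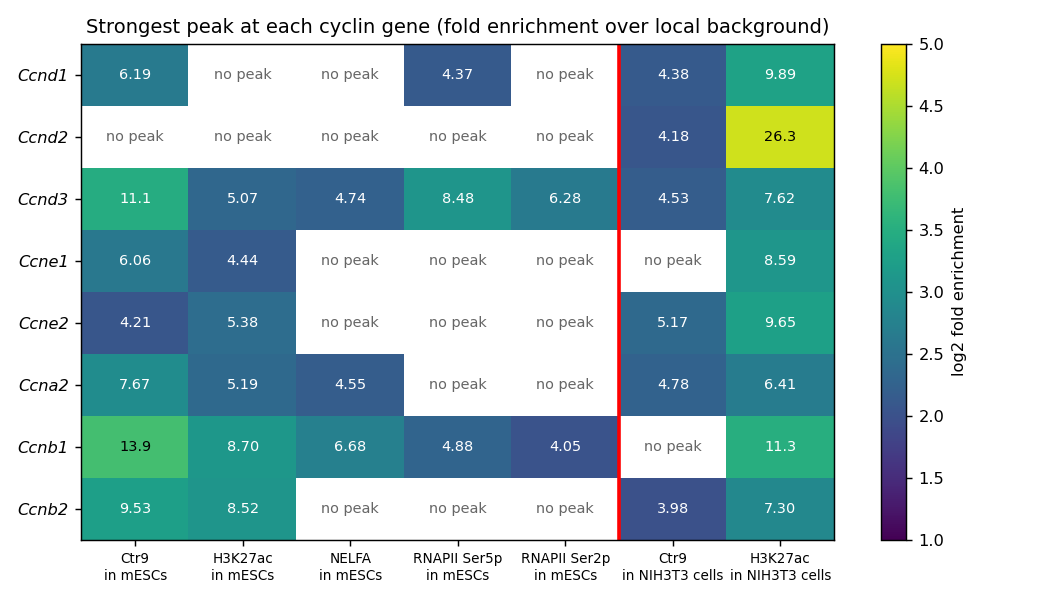
Fold enrichment over the local background of the strongest peak of each list (columns) over each cyclin gene (rows), with colour on a log2 scale. The red line divides the 5 mESC lists from the 2 NIH3T3 lists, and fold enrichments are to be read within a column, since each list was called from its own library.

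A gene counted as bound when a peak met the stretch from 1 kb before its start to 5 kb after its end. In mESCs, 7 of the 8 cyclin genes had a Ctr9 peak, against 44.1% of all protein-coding genes and 87.4% of those with a TPM of at least 10 in mESCs. All 7 were the members above that TPM, so their share was near that of other expressed genes. H3K27ac peaks lay at 6 of the 8 in mESCs (43.1% of all genes and 86.2% of those above a TPM of 10). NELFA peaks lay at 3 (10.4% and 24.8%), Ser5p peaks at 3 (12.8% and 30.6%) and Ser2p peaks at 2 (6.99% and 16.5%). In NIH3T3 cells, 6 of the 8 had a Ctr9 peak (25.8% and 56.9%) and all 8 an H3K27ac peak (54.7% and 97.4%). Ccnd3 and Ccnb1 had peaks of all 5 mESC lists, and Ccnd2 had none of the 5.

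At most bound cyclin genes of mESCs, as at most bound genes with a TPM of at least 10, Ctr9 was strongest near the gene end. The strongest Ctr9 summit lay between 1 kb before the annotated gene end and 5 kb after it at 6 of 7 bound members, a position that 77.2% of bound genes with a TPM of at least 10 shared. At Ccnb1 the summit reached a fold enrichment of 13.9 at 1130 bp past the end, and at Ccnd3 it reached 11.1 at 229 bp past it. These stood at percentiles 91.1 and 84.0 of the strongest Ctr9 peaks over bound genes with a TPM of at least 10. At Ccnb2 it reached 9.53 at 770 bp past the end, with a further peak of 7.70 at 67 bp from the start. At Ccna2 it reached 7.67 at 601 bp past the end, and at Ccnd1 6.19 in the 3′ UTR, 185 bp before the end. At Ccne1 it reached 6.06 at 1509 bp past the end. Ccne2 was the exception, with 4.21 at 246 bp before the start and weaker peaks past the end.

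The Ctr9 peaks also covered the gene bodies to different extents. At Ccnb1, 3 broad peaks covered 68.7% of the window from 1 kb upstream to 5 kb downstream, against a median of 11.9% over bound genes with a TPM of at least 10, at percentile 95.1. At Ccna2, 9 peaks covered 41.5%, at Ccnb2 6 peaks covered 29.5%, at Ccne1 5 peaks covered 22.4% and at Ccnd1 3 peaks covered 20.6%. The long Ccnd3 gene was covered for 9.85%, and Ccne2 for 9.69%. A single Ctr9 peak of 5.92 kb spanned the 3′ part of Ccnd3, and 0.780% of all Ctr9 peaks in mESCs were as wide or wider.

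**Figure D4:**
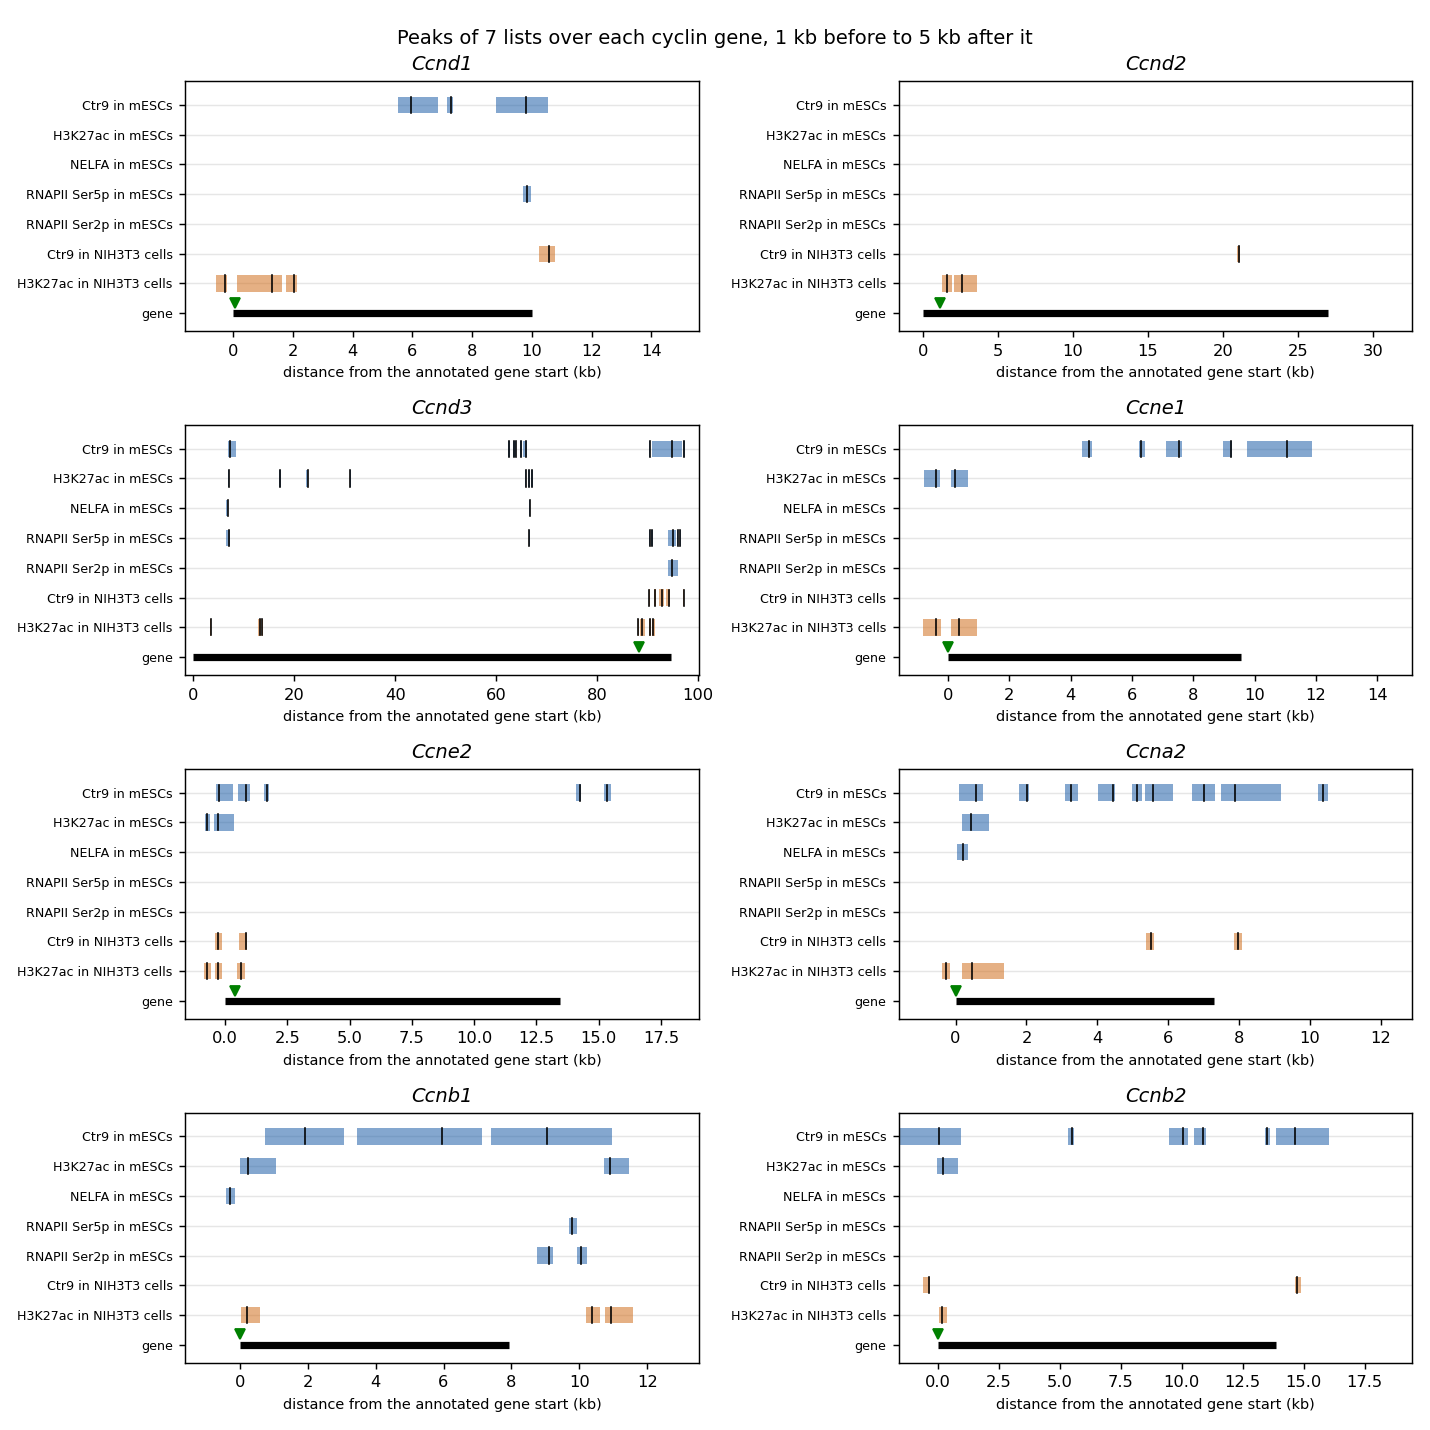
Peaks of the 7 lists (rows, blue for mESCs and orange for NIH3T3 cells) over each cyclin gene, by distance in kb from the outermost annotated start, with black ticks at the summits, a black bar for the gene and a green triangle at the start of the coding transcript with the most reads. Each panel has its own scale. Ctr9 in mESCs extends over bodies and past the ends.

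The Ctr9 list of NIH3T3 cells held fewer peaks than the mESC list at every cyclin gene but Ccnd2. Over all bound genes with a TPM of at least 10, the median number of peaks was also lower, 3 against 4 in mESCs. Only 2 of 6 bound members, Ccnd1 and Ccna2, had the strongest summit between 1 kb before and 5 kb after the end, against 50.9% of bound genes with a TPM of at least 10 there. The strongest fold enrichments ran from 3.98 at Ccnb2 to 5.17 at Ccne2, all below the median of 5.37 over such bound genes. The peaks covered between 0.772% of the window at Ccnd2 and 3.52% at Ccna2, with a median of 5.97% over bound genes. The median over bound genes in mESCs was 11.9%, so the lower coverage was not particular to the cyclins. Ccne1 and Ccnb1 had no Ctr9 peak there, at 31.4 and 55.9 TPM. Fold enrichments of the 2 Ctr9 lists come from separate libraries and were not compared in size. The mESC list holds more peaks, and with the strongest 22016 of each line the members bound stayed at 7 and 6. Peak numbers and coverage were not compared on those trimmed lists.

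The ends of several cyclin genes are shared with a neighbour on the opposite strand, and a peak there cannot be given to 1 gene. Ccnd1 overlaps the end of LTO1 by 1771 bp, Ccnd3 that of Bysl by 361 bp, Ccna2 that of Exosc9 by 863 bp and Ccne2 that of Ints8 by 5622 bp. The strongest mESC Ctr9 summits of Ccnd1, Ccnd3 and Ccna2 lay within the annotated bodies of these neighbours. LTO1 was at 5.72 TPM, Bysl at 18.7 and Exosc9 at 41.7 in mESCs, each below its cyclin partner. Ints8 was at 28.5 TPM in mESCs and 34.5 in NIH3T3 cells, above Ccne2 in both. Past the end of Ccnb1, the next gene on the same strand, Cenph (a centromere protein gene, 78.5 TPM in mESCs and 43.5 in NIH3T3 cells), starts 2751 bp downstream. No other protein-coding gene meets the windows of Ccnb2, Ccne1 or Ccnd2. The RNA libraries were strand-specific per the labels, and whether the quantification used strand is not given in the sources used here.

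At the 3 members with a RNAPII peak, the strongest summits lay near the gene end, and at Ccnd3 4 of the 7 Ser5p peaks lay farther upstream. The strongest Ccnd3 summits lay within the annotated body of Bysl and the Ccnd1 summit within that of LTO1, so they cannot be given to 1 gene. The strongest Ser5p summit was between 1 kb before and 5 kb after the end at 3 of 3 members with a peak, where 26.4% of such genes with a TPM of at least 10 had it. For Ser2p, the form of RNAPII in elongation, this held for 2 of 2 members and for 73.1% of genes. At Ccnd3 the Ser5p summit had a fold enrichment of 8.48 at 387 bp past the end, beside a Ser2p summit of 6.28 at 260 bp past it. Both lay within 158 bp of the Ctr9 summit. At Ccnb1 the Ser2p summits were 4.05 and 3.75 at 1191 and 2141 bp past the end, with a Ser5p summit of 4.88 at 1847 bp. The Ser5p peak and the second Ser2p peak lay within 1 kb of the Cenph start. At Ccnd1 the Ser5p summit of 4.37 lay in the 3′ UTR, 156 bp before the end and close to the Ctr9 summit.

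NELFA peaks lay near the start at Ccna2 and Ccnb1 but not at Ccnd3, and the other members had none. At 2 of 3 members the strongest NELFA summit was within 1 kb of the gene start, against 80.5% of genes with a NELFA peak and a TPM of at least 10. The summit was in the 5′ UTR at Ccna2, 204 bp from the start (fold enrichment 4.55), and 300 bp before the start at Ccnb1 (6.68). The third, Ccnd3, had NELFA peaks at 6.90 and 66.6 kb from its outermost start.

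In mESCs the strongest H3K27ac summit was within 1 kb of the gene start at 5 of 6 members, against 78.1% of genes with a peak and a TPM of at least 10, and in NIH3T3 cells at 4 of 8 (not at Ccnd1, Ccnd2, Ccnd3 or Ccnb1), against 80.1%. The start here is the outermost annotated one. The strongest NIH3T3 summit of Ccnd3 lay 589 bp after the start of Ccnd3-205. Weaker NIH3T3 summits lay 202 bp after the Ccnb1 start, 284 bp before that of Ccnd1 and 462 bp after that of Ccnd2-201. In mESCs Ccnb1 had the strongest, 8.70 at 251 bp after the start, then Ccnb2 with 8.52 at 218 bp. Ccne2 (5.38), Ccna2 (5.19) and Ccne1 (4.44) were lower. Both B cyclin promoters shown above were met by at least 1 base of an H3K27ac peak in both lines. The Ccnb1 promoter was the one of the 4 met by a NELFA peak. The summits of all these peaks lay outside the printed windows. In NIH3T3 cells the Ccnb2 peak met only the edge of its window, as did the NELFA peak at Ccnb1 in mESCs. Ccnd1 had no H3K27ac peak in mESCs although it gave 34.6 TPM there.

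In NIH3T3 cells, Ccnd2 had the strongest H3K27ac peak of the 8, 26.3 at 2638 bp from its outermost start, 1505 bp from the start of Ccnd2-201 and near the start of the antisense gene 9330179D12Rik, 2804 bp into Ccnd2. It stood at percentile 78.8 of the strongest peaks over genes with a TPM of at least 10. The other 7 lay between 6.41 (Ccna2) and 11.3 (Ccnb1), at percentiles 3.70 to 20.5, below the median of 18.0 for such genes. The Ccnb1 value belongs to a peak 10942 bp from its start, within 1 kb of the Cenph start, and the peak at the start of Ccnb1 itself reached 10.4. At Ccnd1 the peaks lay at the start and in the first kilobases (9.89 at 1293 bp).

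At and upstream of the Ccnd3-205 start, peaks were called at different places in the 2 lines. NELFA and RNAPII were not mapped in NIH3T3 cells, and whether any of these places acts on Ccnd3 was not tested. In NIH3T3 cells, an H3K27ac peak of 7.62 lay 589 bp after the start of Ccnd3-205 and a weaker one 268 bp before it. In mESCs no peak of any of the 5 lists overlapped the promoter of this start shown above, although Ccnd3-205 carried 86.5% of the gene's reads there. The nearest mESC summits were those of Ser5p and Ctr9, 2074 and 2076 bp after it, and the nearest H3K27ac summit lay 21302 bp before it. Upstream of it, within the long Ccnd3 gene, summits of 4 of the 5 mESC lists came together in 2 places. At about 7 kb from the outermost start, Ctr9 (4.64), Ser5p (4.91), NELFA (2.81) and H3K27ac (2.52) summits lay between 6.90 and 7.18 kb. At about 66 kb, H3K27ac summits of 5.07, 4.91 and 2.34, NELFA (4.74), Ser5p (4.18) and Ctr9 (4.98) lay between 65.9 and 67.1 kb. Further mESC summits in this stretch were H3K27ac alone at 17.1 kb (4.87), 22.7 kb (2.80) and 31.1 kb (2.74), and 4 of Ctr9 between 62516 and 65002 bp (3.13 to 4.21). In NIH3T3 cells no peak of either list lay at the 2 places, and the upstream H3K27ac summits were at 3.39 kb (4.81), 13.2 kb (5.68) and 13.6 kb (2.91).

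**Figure D5:**
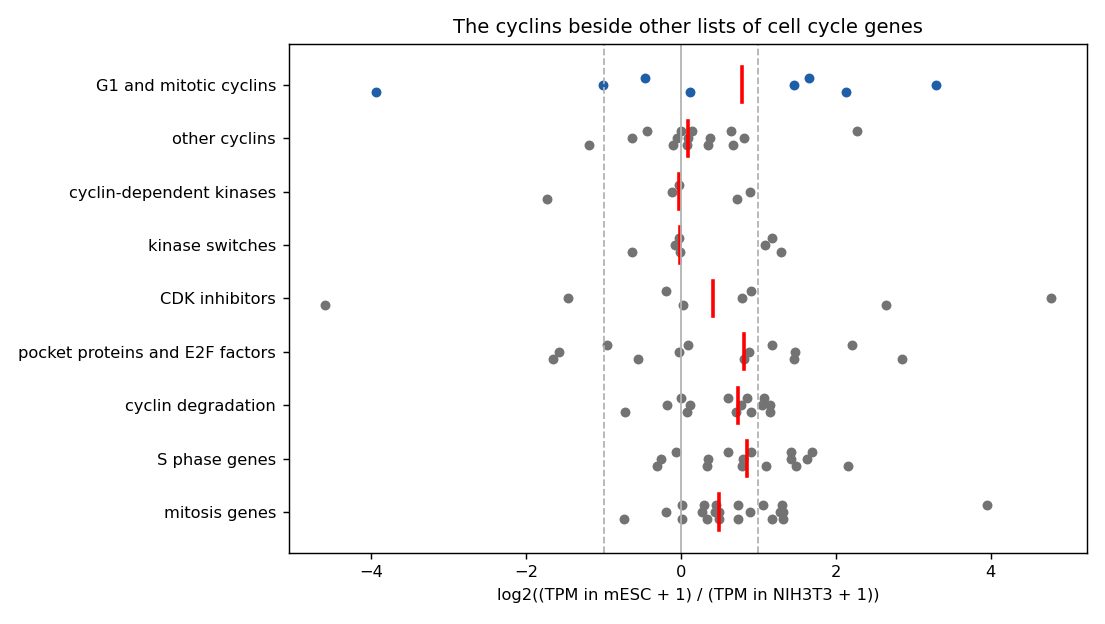
log2 ratio of mESCs to NIH3T3 cells for the 8 cyclin genes (blue) and 8 lists of other cell cycle genes (grey), each point 1 gene, with the median of each list in red and dashed lines at 2-fold. The cyclins spread from -3.94 to 3.29, and the cyclin-dependent kinases centre near 0.

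The partners of the cyclins were read from lists of cell cycle genes. In the list counts below, higher means at least 2-fold higher. Of genes with a TPM of at least 1 in either line, 23.8% were that much higher in mESCs and 20.0% in NIH3T3 cells. Of all protein-coding genes, the shares were 13.5% and 11.3%. No list was tested against these shares. Of the 5 CDKs, none was at least 2-fold higher in mESCs and 1 in NIH3T3 cells, with a median log2 ratio of -0.02. Cdk4, the D cyclin kinase, was the highest in both lines (367 and 398 TPM). Cdk6, the other D cyclin kinase, was 3.33-fold higher in NIH3T3 cells (2.28 and 9.91 TPM), and Cdk2 had the largest ratio toward mESCs (37.3 and 19.7 TPM, 1.85-fold).

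Of the 7 genes that switch CDKs on or off, 3 were higher in mESCs and none in NIH3T3 cells. Cks2, a CDK-binding subunit, was at 244 and 98.6 TPM, and Cks1b, its relative, at 134 and 136. Cdc25b, a phosphatase that activates CDK1, leaned toward NIH3T3 cells (12.6 and 20.1 TPM). Of the 8 CDK inhibitors, 2 were higher in mESCs and 2 in NIH3T3 cells. Cdkn2c, an inhibitor of CDK4 and CDK6, was 24.3-fold higher in NIH3T3 cells (0.851 and 43.9 TPM), Cdkn1c was at 26.5 TPM in mESCs and listed at 0 in NIH3T3 cells, and Cdkn1b led in mESCs (29.5 and 16.6 TPM). Of the 13 pocket protein and E2F genes, 5 were higher in mESCs and 2 in NIH3T3 cells, with a median of 0.81. E2f4 led in mESCs (130 and 56.9 TPM), Tfdp1, an E2F partner, led in NIH3T3 cells (81.4 and 121), E2f6 leaned most to mESCs (9.83 and 0.490) and E2f7, an E2F repressor, most to NIH3T3 cells (4.16 and 15.1).

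Of the 14 genes of cyclin degradation, 4 were higher in mESCs and none in NIH3T3 cells, against the 23.8% and 20.0% given above. Their median was 0.74. Ube2s, a ubiquitin-conjugating enzyme of the anaphase-promoting complex, was the highest in both lines (496 and 238 TPM). Fbxo5, an inhibitor of that complex, had the largest ratio toward mESCs (119 and 52.8), and Cul1 leaned to NIH3T3 cells (54.0 and 90.0). Of the 16 S phase genes, 7 were higher in mESCs and none in NIH3T3 cells, with a median of 0.85. Rrm2 led in mESCs (332 and 107 TPM) and Pcna in NIH3T3 cells (322 and 171), Cdt1, a licensing factor of replication origins, was 4.46-fold higher in mESCs, and Rrm1 leaned to NIH3T3 cells (91.4 and 114).

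Of the 21 mitosis genes, 7 were higher in mESCs and none in NIH3T3 cells, against the 23.8% and 20.0% given above. Their median was 0.50. Top2a was the highest in both lines (283 and 208 TPM), and Foxm1, a transcription factor of the G2 programme, leaned to NIH3T3 cells (19.6 and 33.4). Mybl2, which acts with the MuvB complex on mitotic promoters, was 15.6-fold higher in mESCs (244 and 14.8 TPM). Ccnb2 (3.29) had a larger log2 ratio than every mitosis gene but Mybl2 (3.96), and Ccnb1 (2.14) came next. Of 15 other cyclins, 1 was higher in mESCs and 1 in NIH3T3 cells, with a median of 0.09. Ccnf, a cyclin that is part of a ubiquitin ligase, was 4.84-fold higher in mESCs (105 and 20.9 TPM), Ccng1 was the highest in NIH3T3 cells (69.9 and 109), and Ccno had the largest ratio toward them at a low level (0.101 and 1.50). The meiotic relatives of the set were absent or nearly so, with Ccna1 at 0.303 TPM in mESCs and listed at 0 in NIH3T3 cells, and Ccnb3 listed at 0 in both.

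For each cyclin, the gene most like it was found over 9 readouts, as a distance in SDs over 12379 genes. The readouts were the 2 log2(TPM + 1) values and log2(1 + fold enrichment) of the strongest peak of each of the 7 lists. Ccne2 was nearest to Ip6k2 (0.163), Ccnd2 to Trib2 (0.189) and Ccne1 to Idh3a (0.369). Ccna2 was nearest to the mitosis gene Incenp (0.662), Ccnd1 to Mdc1 (0.765), Ccnd3 to E2f4 (0.806) and Ccnb2 to Pias2 (0.811). Ccnb1 had the farthest nearest gene, Mrpl2 (1.11). For comparison, the median distance from a cyclin to all other genes ran from 3.08 for Ccne2 to 5.70 for Ccnd3.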

How the data were processed

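ChIP-seq (7 libraries with a peak list) and RNA-seq (2 libraries) of mESCs and NIH3T3 cells were analysed, 1 library per group, and the 3 input libraries were not analysed here. The authors used Bowtie2 2.3.5.1 (mm10) for ChIP-seq, dropped blacklisted reads, and ran MACS2 2.2.6 on single runs with a q-value limit of 0.01. The fold enrichment the authors deposited is a ratio of summit pileup to local background, the deposited −log10 p-value and −log10 q-value belong to the summit, and the deposited score is derived from the q-value. For RNA, the authors used kallisto 0.46.1 with GENCODE M19 transcripts and deposited TPM and estimated counts per transcript, 26400407 estimated counts in mESCs and 28849497 in NIH3T3 cells.

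Genes, ends and exons came from GENCODE M21 (GRCm38), which matched 21905 of 21938 protein-coding genes. Each gene was read as its transcript with the highest TPM in each library, with a pseudocount of 1 for ratios. A peak was at a gene when at least 1 bp of it lay between 1 kb before the start and 5 kb after the end. Estimated counts were rounded for exact Poisson intervals and exact binomial (Clopper-Pearson) intervals of ratios, at 95%, which cover counting error only. Named genes were the 8 cyclins, their transcripts with a TPM of at least 1 in either line, and in each other list the highest gene of each line and the largest ratio in each direction, and Ccna1, Ccnb3, Ccnd3-218 and the neighbours of the cyclin genes, outside this rule, were named once values were known. The positions of summits at gene starts and ends, the motif pairs and the coverage were also chosen with values in view. The members and lists were chosen with earlier results of these data known. Alternatives changed the measure, pseudocount, centring, q threshold, window and number of peaks. The code for overlaps, ratios and intervals was tested on simulated data. Python 3.11.15, pandas 2.3.3, NumPy 2.4.6, SciPy 1.17.1 and Matplotlib 3.10.9 were used.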

Additional observations from a re-analysis of the deposited data

How the results depend on the processing

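No paired analysis was possible because each group with a processed file holds 1 library, and for the same reason no library could be left out and no outlying library or differing effect could be looked for. The 4 genes at least 2-fold higher in mESCs remained the same 4 under the sum of TPM over transcripts, summed counts scaled to library size, a pseudocount of 0.1, centring on the median and the transcript with the most counts, the last chosen after seeing the data. The count of genes at least 2-fold higher in NIH3T3 cells was 2, and it was 1 under the sum of TPM and 1 under scaled counts, where Ccnd1 had log2 ratios of -0.72 and -0.97. It was 3 with the transcript with the most counts, where Ccne2 joined. The centring shifted each log2 ratio by 0.07. Of 40 log2 ratios under alternatives, 23 stayed within the counting interval, 17 moved by more and none changed sign. A −log10 q of at least 5 took Ccnb2 from the Ctr9 list of NIH3T3 cells, and a window of 1 kb on either side took Ccnb1 from Ser5p. Distances of summits from the start differed at Ccnd3 by up to 92.1 kb between the outermost start and that of the transcript with the highest TPM. Without replicates, the spread between cultures is unknown, and the depth of the ChIP-seq libraries limits which genes lack a peak.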
